A study of Homo sapiens with 18 samples.

Results

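The mitochondrial ribosomal protein (MRP) genes were described across 3 knockdown comparisons in 786-O cells, an established human clear cell renal carcinoma line. Members were the protein-coding genes whose symbol is MRPL or MRPS followed by a number and at most 1 further letter. The rule found 78 members among the 58735 genes listed in the RBCK1 table and the same 78 among the 58735 of the ANKRD35 table and the 29928 of the MITD1 table. A member was tested where it reached 1 FPKM (fragments per kilobase of gene length, scaled to library size) in at least 3 of the 6 libraries of its table. This left 76 members in the RBCK1 comparison, 76 in the ANKRD35 comparison and 74 in the MITD1 comparison, of 12227, 11890 and 10415 genes tested.

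The study used RNA-seq of 786-O cells to follow knockdown of RBCK1, ANKRD35 or MITD1. Each of the 6 groups had 3 libraries. The group shRBCK1 was set against shcontrol, the group siANKRD35 against sicontrol_for_siANKRD35, and the group siMITD1 against its own control, sicontrol_for_siMITD1. No drug, time point or other agent was named for any group. For ANKRD35 the column headers speak of shRNA but the titles of siRNA, which leaves the reagent uncertain.

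Mitochondria translate the few proteins encoded in their own DNA, all of them components of oxidative phosphorylation, on a ribosome of their own. Its RNAs come from mitochondrial DNA, whereas all of its proteins are encoded in the nucleus, made in the cytosol and imported. Some of these proteins descend from bacterial ribosomal proteins and others are found in mitochondria alone, and they assemble into a large and a small subunit. Of the 78 members, 51 belong to the large subunit, among them MRPS30 and MRPS18A despite their symbols, and 26 to the small subunit. MRPS36 belongs to neither and is known as a component of the 2-oxoglutarate dehydrogenase complex. By the naming of their proteins, 46 members are conserved with bacteria and 31 are specific to mitochondria.

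The targeted genes were lower in the libraries labelled as their knockdown. RBCK1, a subunit of the linear ubiquitin ligase complex, was at 480.3 ± 15.97 FPKM in shcontrol and 31.9 ± 1.04 FPKM in shRBCK1 (mean ± SD, n = 3, as for all means here). Its control means in the ANKRD35 and MITD1 tables were 70.8 and 65.5 FPKM, so it was far higher in shcontrol than in the other controls. ANKRD35 was at 727.4 ± 35.4 FPKM in its control libraries, 0 FPKM in 2 siANKRD35 libraries and 0.0332 FPKM in the other. The control level of ANKRD35 differed between tables, because it was listed at 0 in all 3 shcontrol libraries and at a mean of 0.00640 FPKM in the controls of siMITD1. For both targets it was thus the own control that stood far above the controls of the other tables. ANKRD35 in siANKRD35 was near its level in those other controls. No group is labelled as untreated cells, so which group departs from such cells was not tested. Every direction below is the knockdown relative to its own control, and words such as rose or fell do not say which group changed. MITD1, which acts in abscission at the end of cell division, fell from 7.47 ± 0.336 to 2.71 ± 0.303 FPKM.

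Recovered reads ran from 16346478 to 18648246 per library in the RBCK1 table and from 17502646 to 19034974 in the ANKRD35 table, and reads were not recovered here for the MITD1 table. Within groups the lowest correlation between libraries across genes was 0.992, 0.97 and 0.994 in the 3 tables. The siANKRD35 libraries stood apart from each other by base composition: the deviation of a gene from its group mean had a rank correlation with GC content of 0.67 in replicate 1, −0.73 in replicate 2 and 0.44 in replicate 3, across 11885 genes. The results of that comparison are therefore also given without siANKRD35 replicate 2. Of 11 genes listed as markers of the renal line, 9, 7 and 8 had a mean of at least 1 FPKM in the RBCK1, ANKRD35 and MITD1 tables. Their summed level moved with the groups, from 780.8 to 804.6 FPKM in shcontrol to 637.8 to 662.1 in shRBCK1, from 1023 to 1065 in the controls of siANKRD35 to 1268 to 1577 in the knockdown, and from 792.2 to 808.0 in the controls of siMITD1 to 828.7 to 844.9 in the knockdown. The hypoxia-responsive genes CA9 and NDUFA4L2 were below that level in each table, and the kidney cadherin gene CDH6 was listed at 0 in all 6 libraries of the ANKRD35 table but had control means of 13.5 and 28.6 FPKM in the RBCK1 and MITD1 tables. Endothelial markers summed to at most 0.331 FPKM in any library. Fibroblast markers summed to 4.30 to 5.29 FPKM in the RBCK1 table, 0.0246 to 0.123 in the ANKRD35 table and 4.92 to 6.25 in the MITD1 table, and 2 of 5, 0 of 5 and 2 of 5 reached 1 FPKM. LUM and PDPN were the 2 that did so, and both were listed at 0 in all 6 libraries of the ANKRD35 table. Whether the 3 tables come from the same cells, as labelled, was not tested. Blood cell markers summed to 2.20 to 2.70 FPKM in shcontrol and 2.88 to 3.87 in shRBCK1, 0.915 to 1.31 and 0.988 to 1.92 in the ANKRD35 comparison, and 4.29 to 5.06 in the controls of siMITD1 and 1.19 to 1.70 in the knockdown. Of these 5 genes 1, 0 and 1 reached 1 FPKM by table, and CD3E and HBB were listed at 0 in all tables. The part of these differences in the results was not tested. The labels do not state whether the replicates are separate cultures. The p-values therefore reflect only library-to-library spread, possibly technical.

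MRP genes were expressed above the middle of the tested genes. In the control libraries the median member was at 18.9 FPKM in the RBCK1 table, 18.4 in the ANKRD35 table and 23.8 in the MITD1 table, against 6.74, 6.43 and 7.74 FPKM over all genes tested. FPKM is per listed gene length, which is long for some members (16393 bases for MRPL42 and 6432 for MRPL46). The order of members within a table therefore depends on these lengths. The highest members in shcontrol were MRPL15 (134.7 ± 2.59 FPKM), MRPS34 (119.4 ± 2.55), MRPL14 (85.7 ± 3.04), MRPL37 (68.9 ± 2.60) and MRPL18 (65.2 ± 2.14). Of these 5, MRPL37 and MRPL18 overlapped in their libraries and the others did not overlap their neighbours. MRPL15, MRPL14 and MRPL18 encode bacterial-type proteins of the large subunit, MRPL37 a mitochondria-specific one, and MRPS34 a mitochondria-specific protein of the small subunit. The lowest were MRPL46 (1.82 ± 0.0942), MRPS24 (1.14 ± 0.331) and MRPL38 (0.863 ± 0.0228 FPKM), and the libraries of MRPS24 and MRPL38 overlapped. The order of members was similar between tables, with a rank correlation of control levels of 0.88 between the RBCK1 and ANKRD35 tables over 78 members. It was 0.83 between the RBCK1 and MITD1 tables and 0.78 between the ANKRD35 and MITD1 tables, over 77 members. MRPL45 stood apart, with control means of 32.5 FPKM in the RBCK1 table, 50.7 in the ANKRD35 table and 5.97 in the MITD1 table. In the controls of siMITD1 it read 8.69, 4.70 and 4.54 FPKM. These tables were normalized separately. Points of the RBCK1 and ANKRD35 tables share the gene lengths used for FPKM, and the lengths behind the MITD1 values are not given.

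Members that went untested were low in every library of a table. MRPL38 and MRPS24 were untested in each comparison. MRPL53 was listed at 0 in all 6 libraries of the MITD1 table and at 3.67 ± 0.623 FPKM in shcontrol. MRPS18B was at 0 to 0.0373 FPKM in the MITD1 table, where it was untested, although its control means in the RBCK1 and ANKRD35 tables were 47.4 and 46.8 FPKM. How the MITD1 table treated genes that share sequence or annotation is not given in the sources used here. In the GENCODE 29 annotation 16 members share exon bases with another gene on the same strand and 29 with a gene on the opposite strand, and 34 have pseudogenes named after them, 75 in all. The counting strand is not stated, so values of such members are uncertain. MRPL12 shares 68.2% of its exon bases with AC139530.2 on the same strand, MRPL53 shares 45.2% with CCDC142, MRPL38 shares 37.5% with AC087289.3 and MRPS24 shares 23.2% with the readthrough gene URGCP-MRPS24. On the opposite strand MRPS18A shares 47.0% with RSPH9, MRPS18C 40.2% with ABRAXAS1 and MRPL51 31.3% with NCAPD2.

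A promoter window, from 250 bases before to 50 bases after the RefSeq start on GRCh38.p14, was found for 69 of the 78 members, and these members had 85 windows. The windows were searched on both strands for 6 motifs. The ETS family motif CCGGAAG, whose family includes the nuclear respiratory factor GABPA, was in 33 of the 85 windows (38.8%), against 10.3% of 35116 windows of all genes. The YY1 motif AAGATGGCG was in 13 windows (15.3%, against 1.75%). The NRF1 motif, GCGCA followed directly by TGCGC, was in 1 window (1.18%, against 1.24%), and TATAAA was in 3 (3.53%, against 11.5%). The SP1 motif GGGGCGGGG was in 19 windows (22.4%, against 15.7%) and CCAAT in 28 (32.9%, against 34.6%). The windows of all genes were not limited to genes expressed in these libraries, and a gene can have several windows. A share above theirs is therefore not shown to be particular to the MRP genes. A match is a description of the letters in the window, not a binding site. The stretches below, printed on the gene's own strand and ending upstream of the RefSeq start, hold the ETS motif in 6 members that the results return to, with the motif in capitals in either orientation. They lie at chr16:1773135-1773227 for MRPS34 (minus strand, 3 copies), chr12:6493338-6493403 for MRPL51 (minus, 2 copies), chr19:38930917-38930953 for MRPS12 (plus), chr20:3045993-3046043 for MRPS26 (plus), chr6:43687794-43687844 for MRPS18A (minus) and chr13:40771194-40771244 for MRPS31 (minus).
MRPS34: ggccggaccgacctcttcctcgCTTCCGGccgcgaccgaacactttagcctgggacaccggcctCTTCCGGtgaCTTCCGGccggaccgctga
MRPL51: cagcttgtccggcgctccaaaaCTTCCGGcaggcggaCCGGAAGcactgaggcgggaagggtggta
MRPS12: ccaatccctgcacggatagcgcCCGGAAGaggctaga
MRPS26: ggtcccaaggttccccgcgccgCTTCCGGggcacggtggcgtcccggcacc
MRPS18A: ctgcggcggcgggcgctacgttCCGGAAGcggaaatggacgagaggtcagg
MRPS31: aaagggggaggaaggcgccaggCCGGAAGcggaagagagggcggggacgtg

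The MRP genes were higher as a group in siANKRD35 than in its control. Of the 76 members tested, 58 were higher, none was lower and 18 were not called (limma, adjusted p under 0.05), where 19.4% of all genes tested were called higher and 16.9% lower. At an unadjusted p under 0.05, 69 members were higher and 0 lower (25.7% and 21.7% of all genes), and 0 were called lower when the recovered reads were tested. The median log2 change of the members was 0.50 against 0.03 over all genes tested, on the log2(FPKM + 1) scale used for all changes here, which understates changes of low genes. In 68 members the 3 siANKRD35 libraries did not overlap the 3 controls, against 52.2% of all genes tested. Summed over the members, the siANKRD35 libraries reached 2829, 2474 and 2576 FPKM, each above the control sums of 1722, 1712 and 1725 FPKM. The summed renal markers were also higher in siANKRD35 (1268 to 1577 against 1023 to 1065 FPKM), and their part in the result was not tested. In bulk libraries such a sum cannot separate more RNA of these genes per cell from a different mix of cells.

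**Figure D1:**
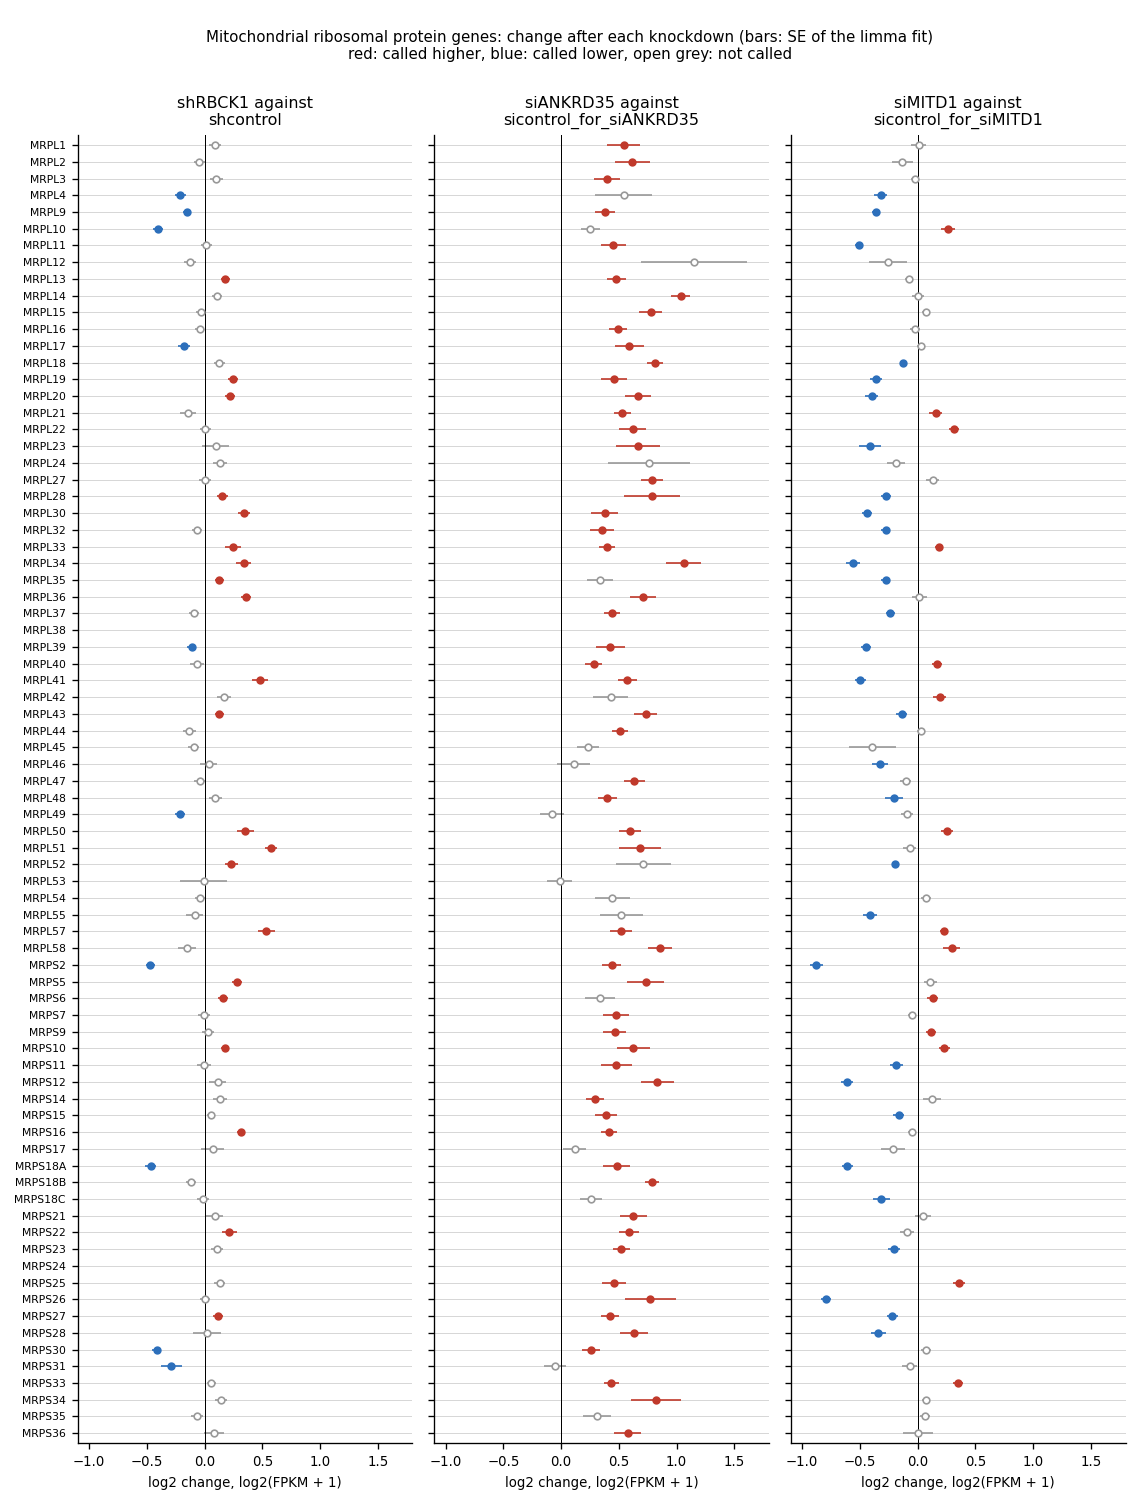
Log2 change of each MRP gene (knockdown minus control, log2(FPKM + 1) scale, bars are the standard error of the limma fit) in the RBCK1, ANKRD35 and MITD1 comparisons, with red for members called higher, blue for members called lower and open grey for members not called. In the ANKRD35 panel 58 members are red and 0 blue, in the MITD1 panel 14 are red and 30 blue, and in the RBCK1 panel 21 are red and 10 blue.

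Both subunits took part. In siANKRD35, 37 of 50 large-subunit members were higher, with a median log2 change of 0.52, and 20 of 25 small-subunit members, with a median of 0.46. Of the members conserved with bacteria 36 of 45 were higher, with a median of 0.53, and of those specific to mitochondria 21 of 30, with a median of 0.45. The cytosolic ribosomal proteins, which build the ribosome outside mitochondria, gave values close to these in the same comparison: 60 of 81 were higher, 0 were lower and the median was 0.50. The size of the change varied with the library, as the plot of library medians shows: relative to the control mean, the median member was higher by 0.55 in siANKRD35 replicate 1, 0.40 in replicate 2 and 0.50 in replicate 3, while the medians over all genes tested were 0.02, 0.04 and 0.03.

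**Figure D2:**
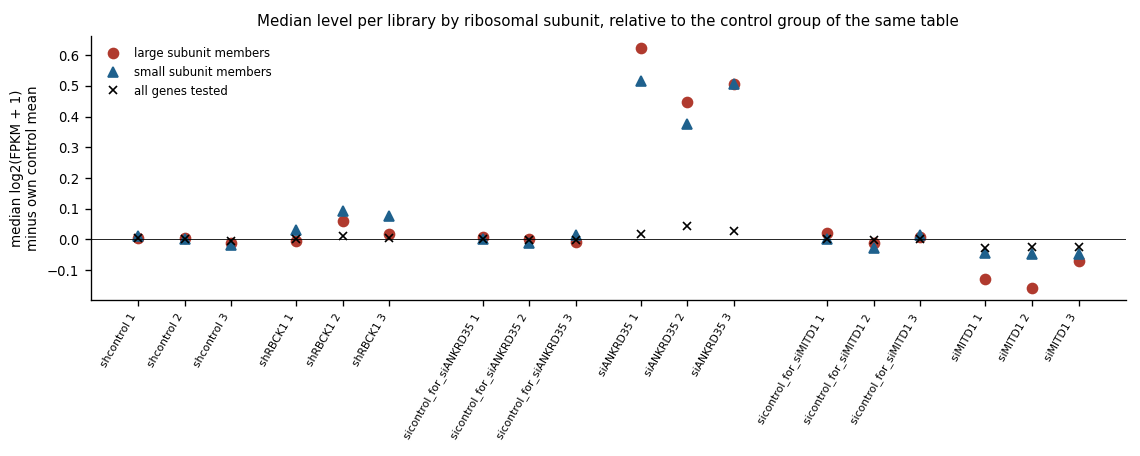
Median difference of each library from the mean of its own control group, on the log2(FPKM + 1) scale, for large-subunit members (circles), small-subunit members (triangles) and all genes tested (crosses). The 3 siANKRD35 libraries stand above their controls for both subunits, and the siMITD1 libraries lie below theirs, further for the large subunit.

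Among the members with the largest increases, MRPL14, a bacterial-type protein of the large subunit, had 63.7, 68.2 and 64.8 FPKM in the control libraries and 146.8, 133.8 and 126.2 FPKM in siANKRD35. The groups did not overlap, and the knockdown mean was 2.07 times the control mean (log2 change 1.03, SE 0.079, limma adjusted p = 0.000621). MRPL34, another bacterial-type protein of the large subunit, measured 8.97, 10.1 and 8.40 FPKM in the controls and 24.9, 16.1 and 20.4 FPKM in siANKRD35. Its knockdown mean was 2.23 times the control mean (log2 change 1.06, SE 0.154, limma adjusted p = 0.00329), with all 3 knockdown libraries above the controls and replicate 2 the lowest of them. MRPL18, which binds the large subunit near its central protuberance, rose from 47.2 ± 0.760 to 83.8 ± 4.95 FPKM (log2 change 0.81, SE 0.0708, limma adjusted p = 0.000864). MRPL58, a peptidyl-tRNA hydrolase built into the large subunit that releases stalled peptides, measured 23.8, 22.8 and 25.5 FPKM in the controls and 49.7, 44.6 and 39.1 FPKM in siANKRD35 (log2 change 0.86, SE 0.101, limma adjusted p = 0.00185), and the groups did not overlap.

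In the small subunit the largest increases were those of MRPS12 and MRPS34. MRPS12, which lies at the decoding centre, measured 29.4, 26.2 and 25.6 FPKM in the controls and 54.1, 38.9 and 55.4 FPKM in siANKRD35 (log2 change 0.83, SE 0.143, limma adjusted p = 0.00582). MRPS34, needed for stability of the small subunit, measured 89.5, 86.1 and 90.3 FPKM in the controls and 205.3, 108.5 and 174.8 FPKM in siANKRD35 (log2 change 0.82, SE 0.216, limma adjusted p = 0.0245). Its groups did not overlap, but replicate 2 lay far closer to the controls than the other 2 knockdown libraries. MRPS18B, one of the 3 relatives of bacterial S18, was the steadiest of these, at 46.5, 47.2 and 46.7 FPKM in the controls and 80.6, 81.0 and 82.6 FPKM in siANKRD35 (log2 change 0.79, SE 0.0605, limma adjusted p = 0.000621).

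**Figure D3:**
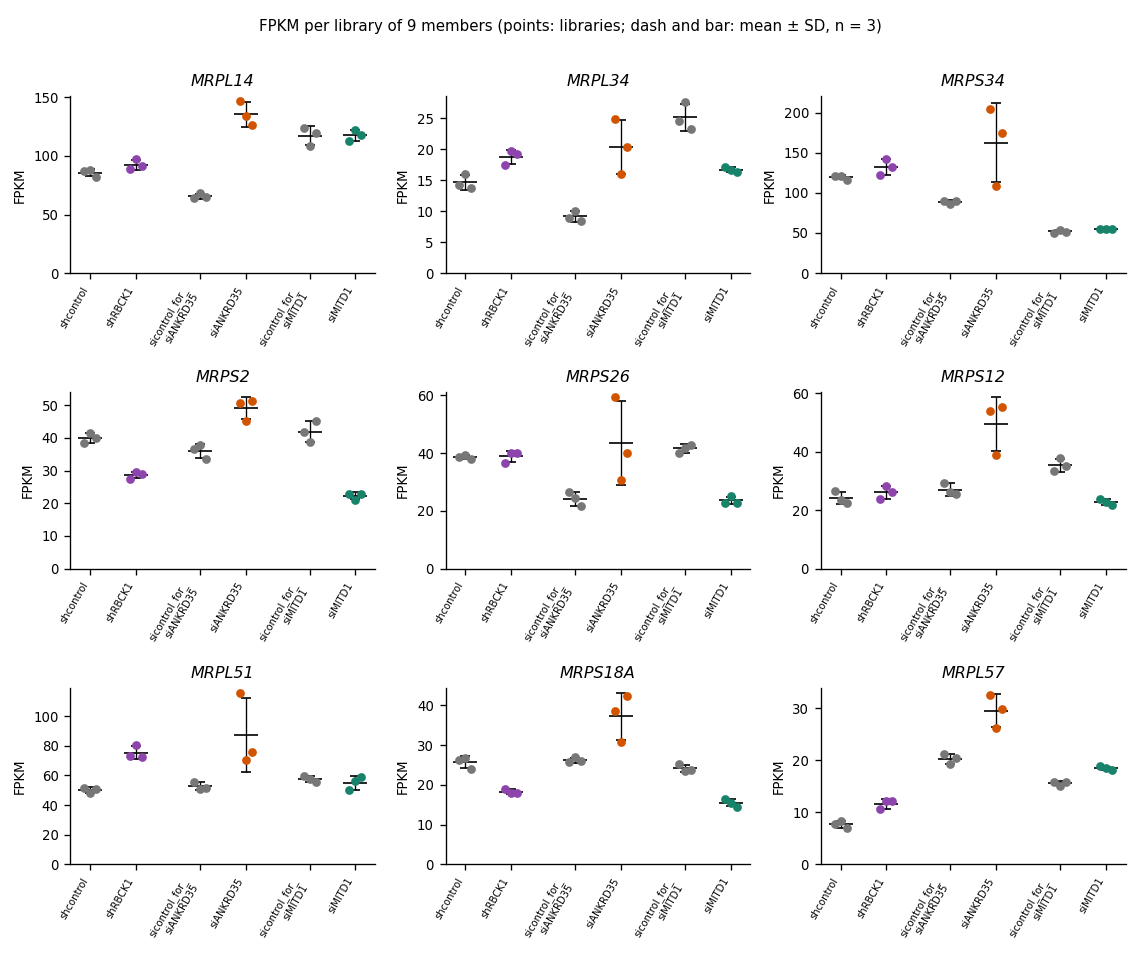
FPKM in every library (points) with the group mean and SD (dash and bar, n = 3) for 9 members in the 6 groups. In siANKRD35 the points of MRPS34, MRPS26 and MRPL51 are spread over a wider range than in any other group, and MRPS2 and MRPS18A are lower than their controls in both shRBCK1 and siMITD1.

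The member with the largest fitted change was not called. MRPL12, which forms the flexible stalk of the large subunit and also binds the mitochondrial RNA polymerase, measured 11.6, 8.11 and 9.45 FPKM in the controls and 43.5, 10.1 and 25.7 FPKM in siANKRD35. Replicate 2 lay within the control range, and the log2 change of 1.15 had an SE of 0.457 (limma adjusted p = 0.0887). MRPL24, an early-assembling large-subunit protein, had the same pattern, with 72.9, 24.6 and 52.7 FPKM in siANKRD35 against 30.02, 26.4 and 23.7 FPKM in the controls. It was also not called (limma adjusted p = 0.135). Other members were highest in replicate 2, such as MRPS10, a head protein of the small subunit, with 60.3, 87.8 and 65.02 FPKM against control values of 43.3, 44.6 and 47.3. The call of MRPS10 was lost without control replicate 1 or 2. MRPL24 is named here for this pattern, seen in its values.

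Without siANKRD35 replicate 2, 71 of the 76 members were called higher and 0 lower, with a median log2 change of 0.52, where 29.6% of all genes tested were called higher and 25.4% lower. All 58 members called with every library were among the 71. The change of MRPL12 was 1.70 and called (limma adjusted p = 0.00155), and that of MRPS34 was 1.09 (limma adjusted p = 0.000253). The count fell to 36, 34 and 36 when control replicate 1, 2 or 3 was left out, each keeping only members of the original 58, with 10.2%, 9.81% and 10.3% of all genes called higher. It was 41 without siANKRD35 replicate 3, with 12.6% of all genes.

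The change in siANKRD35 went with gene length and base composition. Across all 11890 genes tested, shorter genes had the higher log2 changes (rank correlation with gene length −0.41), and across the 76 members the correlation was −0.33. The members are shorter than the tested genes in general, with a median of 2501.5 bases against 4567. Members had higher medians than all tested genes of the same length. The 30 members under 2000 bases had a median of 0.60 (all such genes 0.26), the 29 between 2000 and 4000 bases a median of 0.47 (0.19), and the 17 of 4000 bases or more a median of 0.46 (−0.08). Called higher in these classes were 23, 23 and 12 members (76.7%, 79.3% and 70.6%), against 30.2%, 31.5% and 10.8% of all tested genes. With the length trend of all genes removed, 32 members were higher and 0 lower, with a median of 0.33 (13.6% and 14.4% of all genes). With quantile normalization 37 were higher and 0 lower (14.1% and 17.1% of all genes), and with the recovered reads tested 52 and 0 (14.7% and 22.9%). With length and GC content removed together, 42 were higher and 2, MRPL49 and MRPS31, were lower, with a median of 0.29 (21.9% and 21.5% of all genes). MRPL14, MRPL34, MRPL18, MRPL58, MRPS12 and MRPS34 were each called higher under the latter correction (MRPS34 not under the former, limma adjusted p = 0.0655), with log2 changes of 0.81, 0.75, 0.48, 0.59, 0.58 and 0.60. Across members the change also had a rank correlation of 0.39 with GC content, where over all genes it was −0.00.

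**Figure D4:**
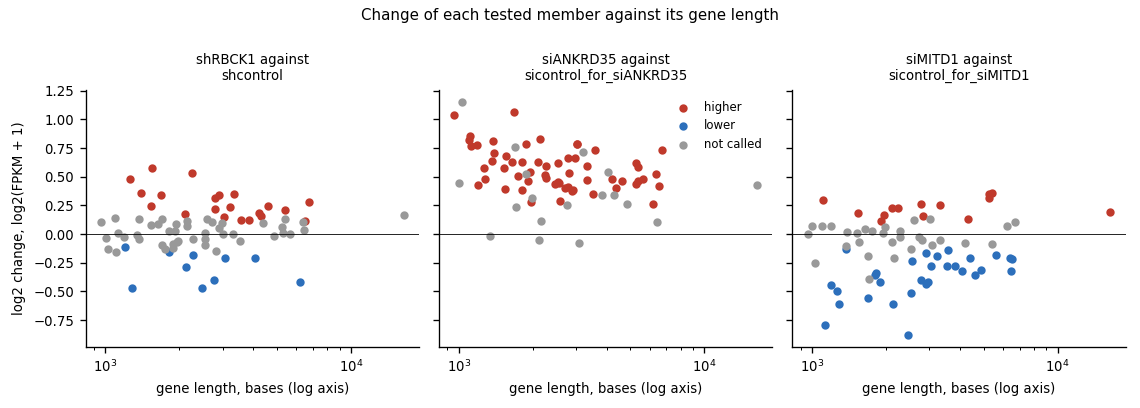
Log2 change of each tested member (vertical axis, log2(FPKM + 1) scale) against its gene length in bases (horizontal log axis) in the 3 comparisons, coloured by call. Members called higher in siANKRD35 run over the whole range of lengths, with the largest changes among the short genes.

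In siMITD1 the MRP genes moved in both directions, more of them down than up. Of the 74 members tested, 14 were higher, 30 lower and 30 not called, where 30% of all genes tested were called higher and 35.6% lower. The median log2 change was −0.09, against −0.03 over all genes tested. In 47 members the groups of libraries did not overlap, against 70.4% of all genes tested. The share of members called, 59.5%, was below the 65.6% of all genes, so the number of calls is not particular to the family. Summed blood cell markers, mainly LAPTM5, were at 1.19 to 1.70 FPKM in siMITD1 and 4.29 to 5.06 FPKM in its controls, and their part in the result was not tested. Of the large-subunit members 9 of 49 were higher and 21 lower, with a median of −0.13, and of the small-subunit members 5 of 24 were higher and 9 lower, with a median of −0.06. The cytosolic ribosomal proteins had 15 of 79 higher and 21 lower, with a median of −0.01.

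The largest decreases were in the small subunit. MRPS2, a bacterial-type protein of the small subunit, measured 41.9, 38.8 and 45.1 FPKM in the controls and 22.9, 21.1 and 22.9 FPKM in siMITD1. It fell by 46.8% with no overlap (log2 change −0.88, SE 0.0567, limma adjusted p = 3e-06). MRPS26, a mitochondria-specific protein of the small subunit, measured 40.1, 41.9 and 42.8 FPKM in the controls and 22.8, 25.1 and 22.8 FPKM in siMITD1 (log2 change −0.79, SE 0.045, limma adjusted p = 1.47e-06). MRPS12 of the decoding centre fell from 35.5 ± 2.22 to 22.8 ± 0.950 FPKM (log2 change −0.61, SE 0.0502, limma adjusted p = 1.18e-05). In each of these genes every siMITD1 library lay below every control library.

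In the large subunit, MRPS18A measured 25.2, 23.5 and 23.8 FPKM in the controls and 16.4, 15.6 and 14.5 FPKM in siMITD1 (log2 change −0.61, SE 0.0492, limma adjusted p = 1.08e-05). MRPL34 fell from 25.2 ± 2.20 to 16.7 ± 0.437 FPKM (log2 change −0.56, SE 0.0581, limma adjusted p = 4.56e-05). MRPL11, which lies at the base of the stalk where translation factors bind, fell from 37.3 ± 0.765 to 25.9 ± 1.08 FPKM (log2 change −0.51, SE 0.0377, limma adjusted p = 6.69e-06). The groups of these 3 genes did not overlap either.

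The increases in siMITD1 were smaller. MRPS25 and MRPS33, mitochondria-specific proteins of the small subunit, rose from 6.09 ± 0.338 to 8.09 ± 0.254 FPKM and from 8.36 ± 0.372 to 10.9 ± 0.196 FPKM. Their log2 changes were 0.36 (SE 0.0509, limma adjusted p = 0.000294) and 0.35 (SE 0.0441, limma adjusted p = 0.000155). MRPL22, whose bacterial relative lines the peptide exit tunnel, rose from 7.001 ± 0.112 to 8.97 ± 0.291 FPKM (log2 change 0.32). MRPL58, MRPL10 and MRPL50 rose by 0.29, 0.26 and 0.25 on the log2 scale, and for these 4 genes too no control library reached a siMITD1 library. MRPL10 carries the stalk of the large subunit, and its log2 change was −0.40 in shRBCK1.

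In shRBCK1 the calls were split between higher and lower. Of the 76 members tested, 21 were higher, 10 lower and 45 not called, where 24.1% of all genes tested were called higher and 24.9% lower. The median log2 change was 0.06 against 0.01 over all genes tested. In 39 members the groups did not overlap, against 59% of all genes tested. The share of members called, 40.8%, was below the 49.1% of all genes. The large subunit had 15 higher and 8 lower of 50 (median 0.01) and the small subunit 6 higher and 2 lower of 25 (median 0.07), and the cytosolic ribosomal proteins 27 higher and 6 lower of 82 (median 0.07). The balance of calls depended on scaling. With the recovered reads tested, 32 members were higher and 7 lower, with 34.3% and 21.9% of all genes. With quantile normalization 31 were higher and 7 lower, with 28.6% and 21.7% of all genes.

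MRPL51, a mitochondria-specific protein of the large subunit, had the largest increase, with 51.8, 48.1 and 50.8 FPKM in shcontrol and 73.4, 80.6 and 72.2 FPKM in shRBCK1. The groups did not overlap (log2 change 0.58, SE 0.0499, limma adjusted p = 9.1e-05). MRPL57, another such protein, rose from 7.69 ± 0.635 to 11.6 ± 0.898 FPKM (log2 change 0.54, SE 0.0716, limma adjusted p = 0.000759). MRPL41, also specific to mitochondria, rose from 43.1 ± 1.89 to 60.7 ± 5.67 FPKM (log2 change 0.48, SE 0.0685, limma adjusted p = 0.00103). MRPL36, MRPL50 and MRPL30 rose by 0.36, 0.35 and 0.34 on the log2 scale, again without overlap between their groups.

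MRPS2 and MRPS18A had the largest decreases in shRBCK1, as they were also among the largest in siMITD1. MRPS2 measured 38.6, 41.6 and 40.01 FPKM in shcontrol and 27.6, 29.5 and 28.9 FPKM in shRBCK1 (log2 change −0.47, SE 0.041, limma adjusted p = 9.6e-05). MRPS18A measured 26.2, 26.8 and 24.0 FPKM in shcontrol and 19.1, 17.9 and 17.97 FPKM in shRBCK1 (log2 change −0.47, SE 0.0491, limma adjusted p = 0.000237). In both genes all shRBCK1 libraries lay below all shcontrol libraries. MRPS30, a mitochondria-specific protein of the large subunit, fell from 18.1 ± 0.358 to 13.4 ± 0.507 FPKM (log2 change −0.41, SE 0.0393, limma adjusted p = 0.000142). MRPL10 fell from 20.7 ± 0.624 to 15.4 ± 0.546 FPKM (log2 change −0.40, SE 0.04, limma adjusted p = 0.000178). MRPL49 and MRPS31 fell by 0.21 and 0.29 on the log2 scale. The call of MRPS31 (limma adjusted p = 0.0314) rests on individual libraries: its log2 change was −0.19 without shRBCK1 replicate 2, with an adjusted p of 0.0507, and its adjusted p was 0.0614, 0.0925 and 0.0648 without shcontrol replicate 1, 2 or 3 and 0.0651 without shRBCK1 replicate 3.

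The 3 comparisons share no libraries. Of the 74 members tested in each, MRPL57, MRPL50, MRPS10 and MRPL33 were called higher in all 3, and none was called lower in all 3. Of the 9262 genes tested in each, 1.71% were called higher and 2.2% lower in all 3. Since 76.3% of the members were higher in siANKRD35, nothing particular to the family is read from the count. MRPL57 had 7.70, 8.32 and 7.05 FPKM in shcontrol against 10.6, 12.1 and 12.1 in shRBCK1. It had 21.1, 19.3 and 20.3 FPKM in the controls of siANKRD35 against 32.5, 26.2 and 29.8 in the knockdown. In the controls of siMITD1 it had 15.9, 15.1 and 15.9 FPKM against 18.8, 18.4 and 18.2 in siMITD1. The groups were apart each time, with log2 changes of 0.54, 0.52 and 0.23. MRPL50, a mitochondria-specific large-subunit protein, had log2 changes of 0.35, 0.59 and 0.25 in the RBCK1, ANKRD35 and MITD1 comparisons, MRPS10 had 0.18, 0.63 and 0.23, and MRPL33, a bacterial-type protein of the large subunit, had 0.25, 0.40 and 0.18. MRPL33 was not called in siANKRD35 with the length trend removed (log2 change 0.10, limma adjusted p = 0.268), or with length and GC content removed (log2 change 0.016), nor in shRBCK1 without shcontrol replicate 2 or 3 or shRBCK1 replicate 1 or 2 (limma adjusted p from 0.0544 to 0.0628).

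Of the same 74 members, 29 (39.2%) were called higher in one comparison and lower in another, against 30.8% of the 9262 genes. Called in the same direction in at least 2 comparisons were 31 (41.9%), against 33.6%. Of the 29, 24 were higher in siANKRD35 and lower in siMITD1 (32.4% of the 74, against 8.89% of the 9262 genes). They are 41.4% of the 58 higher and 80% of the 30 lower. That share of the 30 is near the 76.3% of all tested members that were higher in siANKRD35. Higher in both siANKRD35 and siMITD1 were 11 members (14.9%, against 5.24% of the 9262 genes), 19.0% of the 58 and 78.6% of the 14. Of the 21 members higher in shRBCK1, 18 were also higher in siANKRD35 and 10 were lower in siMITD1. Of the 10 lower in shRBCK1, 6 were higher in siANKRD35 and 5 lower in siMITD1. The shares of all genes in these shRBCK1 overlaps are not given here, so nothing particular to the family is read from them. Across members the log2 changes had a rank correlation of 0.26 between the RBCK1 and ANKRD35 comparisons (76 members), 0.08 between RBCK1 and MITD1 and −0.01 between ANKRD35 and MITD1 (74 members each).

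The widest gaps were between siANKRD35 and siMITD1. The log2 changes were 1.06 and −0.56 for MRPL34, 0.77 and −0.79 for MRPS26, 0.83 and −0.61 for MRPS12, and 0.44 and −0.88 for MRPS2. They were 0.48 and −0.61 for MRPS18A and 0.67 and −0.41 for MRPL23, whose bacterial relative surrounds the tunnel exit. The difference between the comparisons was not tested, since the tables were normalized separately. For MRPS26 the siANKRD35 libraries read 59.3, 30.7 and 40.2 FPKM against controls of 26.6, 24.3 and 21.7 FPKM, so the rise varied between libraries although the groups did not overlap. Its adjusted p of 0.0332 became 0.0690, 0.0903 or 0.107 without control replicate 1, 2 or 3 and 0.0788 without siANKRD35 replicate 3. The siANKRD35 calls of MRPS18A, MRPL23 and MRPS34 were likewise lost when a single control library or siANKRD35 replicate 3 was left out, and that of MRPL23 also without replicate 1.

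The 3 members related to bacterial S18 differed from each other. MRPS18A, whose protein sits in the large subunit, was lower in shRBCK1 and siMITD1 and higher in siANKRD35 (log2 changes −0.47, −0.61 and 0.48). MRPS18B was higher in siANKRD35 and not called in shRBCK1 (log2 change −0.12, limma adjusted p = 0.0565). MRPS18C measured 5.20, 5.31 and 5.45 FPKM in the controls of siMITD1 and 4.65, 3.72 and 3.92 FPKM in siMITD1, a decrease without overlap (log2 change −0.32, SE 0.0714, limma adjusted p = 0.00431). In shRBCK1 and siANKRD35 it was not called, with changes of −0.01 and 0.26.

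Other members with known roles varied by comparison. MRPL44, a large-subunit protein with an RNase III-like fold, rose in siANKRD35 from 28.0 ± 0.333 to 40.3 ± 2.22 FPKM (log2 change 0.51, limma adjusted p = 0.00281) and was not called in shRBCK1 (−0.13) or siMITD1 (0.03). MRPS36 of the 2-oxoglutarate dehydrogenase complex rose in siANKRD35 from 9.09 ± 0.985 to 14.1 ± 1.89 FPKM (log2 change 0.58, limma adjusted p = 0.0103), while its changes of 0.08 in shRBCK1 and 0.01 in siMITD1 were not called. The calls of MRPL44 and MRPS36 in siANKRD35 were lost with the length trend removed (limma adjusted p = 0.118 and 0.182), and that of MRPS2 was lost there too. MRPS30 rose in siANKRD35 by 0.26 (limma adjusted p = 0.0396), a call lost when any single control library or siANKRD35 replicate 3 was left out. MRPL46 and MRPS11 lie head to head on chromosome 15, on the minus and plus strands with 34 bases between their annotated starts. Both were lower in siMITD1, MRPL46 from 1.61 ± 0.0665 to 1.08 ± 0.0813 FPKM and MRPS11 from 10.1 ± 0.609 to 8.77 ± 0.459 FPKM. In siANKRD35 MRPS11 was higher (log2 change 0.48) and MRPL46 was not called (0.11).

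Members with and without the ETS motif were set side by side, and the difference between them was not tested. Of all genes tested, 19.4% were called higher and 16.9% lower in siANKRD35, 24.1% and 24.9% in shRBCK1, and 30% and 35.6% in siMITD1. Among all tested members 76.3% were higher in siANKRD35, so nothing about the motif is read from the counts below. In siANKRD35, 24 of 29 tested members with the motif were higher, with a median log2 change of 0.59, and 27 of 38 without it, with a median of 0.46. In shRBCK1 the medians were 0.10 (10 higher and 2 lower of 29) and 0.02 (9 higher and 7 lower of 38). In siMITD1 they were −0.08 (5 higher and 12 lower of 28) and −0.17 (7 higher and 15 lower of 37). The ranges overlapped throughout: of the 6 members whose stretches are printed above, MRPS31 had a change of −0.05 in siANKRD35, not called, and MRPS12 of 0.83.

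Ribosome proteins without an MRP symbol, a list of 5 genes, gave further values for the same particle. In siANKRD35, 3 of 5 were higher and 0 lower (19.4% and 16.9% of all genes). GADD45GIP1 rose from 55.7 ± 1.14 to 91.4 ± 3.67 FPKM, CHCHD1 from 21.5 ± 0.498 to 38.5 ± 5.64 FPKM and DAP3 from 49.5 ± 0.549 to 62.5 ± 1.21 FPKM. In siMITD1, 0 of 5 were higher and 2 lower (30% and 35.6% of all genes), AURKAIP1 (log2 change −0.32) and PTCD3 (−0.15). In shRBCK1, PTCD3 and CHCHD1 rose by 0.23 and 0.27 and DAP3 fell by 0.15. GADD45GIP1 belongs to the large subunit and the other 4 to the small subunit.

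**Figure D5:**
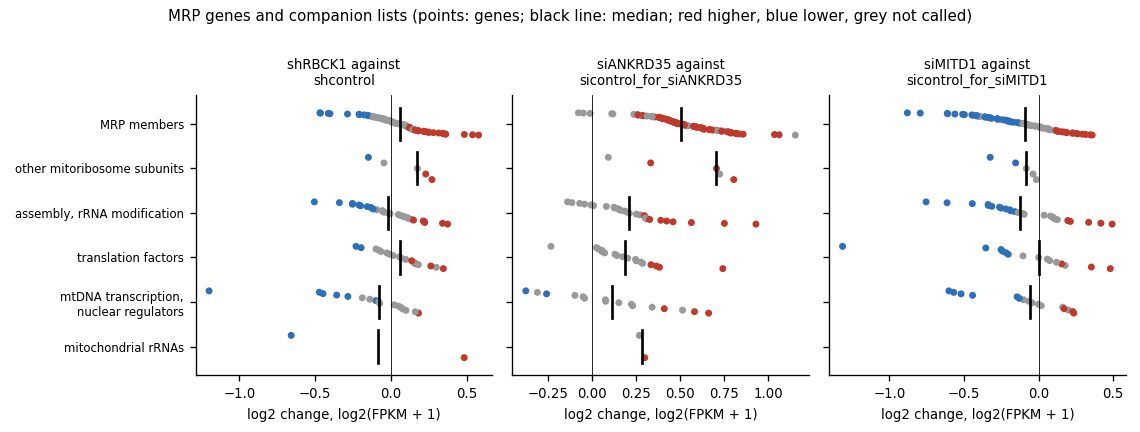
Log2 change (horizontal axis, log2(FPKM + 1) scale) of every tested gene of the MRP family and of 5 companion lists in the 3 comparisons, with red for genes called higher, blue for genes called lower, grey for genes not called and a black line at the median of each list. In siANKRD35 the MRP median of 0.50 lies to the right of the assembly median of 0.21 and the translation factor median of 0.19.

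The ribosomal RNAs that the MRP proteins bind are encoded in mitochondrial DNA. How far library preparation sets their measured levels was not tested. In shRBCK1 they were called in opposite directions: MT-RNR2, the RNA of the large subunit, rose from 1255 ± 23.2 to 1752 ± 52.8 FPKM (log2 change 0.48, limma adjusted p = 5.64e-05), and MT-RNR1, that of the small subunit, fell from 626.1 ± 40.1 to 395.8 ± 12.2 FPKM (log2 change −0.66, limma adjusted p = 5.7e-05). The MRP medians of the large and small subunits in that comparison were 0.01 and 0.07. In siANKRD35, MT-RNR2 rose by 0.30 (limma adjusted p = 0.0209) and MT-RNR1 had a change of 0.27 with overlapping groups (limma adjusted p = 0.0973). Neither was used in the MITD1 comparison, because its table lists neither gene.

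Factors that assemble the mitochondrial ribosome or modify its RNA had 11 of 30 higher in siANKRD35, 0 lower and a median of 0.21. Of all genes tested there, 19.4% were called higher and 16.9% lower. MALSU1, an assembly factor of the large subunit, rose from 7.01 ± 0.481 to 14.3 ± 1.43 FPKM (log2 change 0.93, limma adjusted p = 0.00131). RPUSD3 and TFB1M, which modify the large and small ribosomal RNA, rose by 0.75 and 0.56. In siMITD1 5 of 26 were higher and 12 lower (30% and 35.6% of all genes), with a median of −0.12. MPV17L2 and MTERF3, both needed for assembly of the ribosome, fell by 0.75 and 0.61 and RCC1L rose by 0.49. In shRBCK1 6 of 29 were higher and 9 lower (24.1% and 24.9% of all genes), with a median of −0.02. RPUSD3 and the protease subunit AFG3L2 rose by 0.34 and 0.21, and the RNA helicase DHX30 fell by 0.26.

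Among mitochondrial translation factors the largest change was in siMITD1, where the elongation factor gene GFM1 measured 8.50, 8.42 and 8.74 FPKM in the controls and 2.99, 2.97 and 2.58 FPKM in the knockdown (log2 change −1.31, SE 0.0572, limma adjusted p = 3.94e-07). The groups were far apart, and in shRBCK1 and siANKRD35 GFM1 was not called (0.15 and 0.24). Of the list, 3 of 15 were higher and 6 lower in siMITD1 (30% and 35.6% of all genes). Among the lower were TUFM (−0.20), another elongation factor, and SLIRP (−0.35), which binds mitochondrial messenger RNA. In siANKRD35 4 of 18 were higher and 0 lower (19.4% and 16.9% of all genes). SLIRP was at 0.74, the elongation factor TSFM at 0.38 and the inner membrane insertase OXA1L at 0.33. In shRBCK1 4 of 18 were higher and 2 lower (24.1% and 24.9% of all genes). GUF1 and C6orf203 were at 0.34 and 0.26 and the recycling factor MRRF at −0.23.

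Genes for mitochondrial DNA transcription and the nuclear regulators of mitochondrial genes formed the last list. In siMITD1 3 of 16 were higher and 6 lower, a share of lower calls near the 35.6% of all genes: the mitochondrial RNA polymerase POLRMT fell from 30.1 ± 0.0747 to 19.5 ± 0.426 FPKM, TFAM, which packages mitochondrial DNA, from 18.6 ± 0.149 to 12.7 ± 0.206 FPKM, and the transcription factor TFB2M from 16.9 ± 1.14 to 11.1 ± 1.17 FPKM. In shRBCK1 1 of 17 was higher and 6 lower (24.1% and 24.9% of all genes). MYC, a regulator of ribosome genes, was at −1.20, the coactivator PPRC1 at −0.47 and the helicase TWNK at −0.45. In siANKRD35 3 of 16 were higher and 2 lower (19.4% and 16.9% of all genes). The single-strand binding protein SSBP1 was at 0.66, the polymerase subunit POLG2 at 0.58 and PPRC1 at −0.38.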

How the data were processed

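Values were used as the authors deposited them, in FPKM, in 3 tables of 6 libraries each, normalized separately. Per the labels' protocols, total RNA was made into libraries with a directional kit. Per the submitters' processing notes the build was mm10, a mouse build, whereas 58724 of 58735 genes of the RBCK1 and ANKRD35 tables have the start and end of the human GENCODE 29 annotation. Not given in the sources used here are the aligner, the counting tool, the strand setting and the library scaling. The MITD1 table lists symbols without lengths, which were taken from the RBCK1 table. Columns were matched to samples by target and replicate number, and 6 value columns of the ANKRD35 table that name no sample were not used.

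For the RBCK1 and ANKRD35 libraries, FPKM multiplied by gene length was a whole multiple of a step per library (100% of values within 0.01 reads), which gave reads, and the deposited scaling was to 0.958 to 1.028 times their sum. No 2 libraries were identical, and in these 2 tables libraries of one group differed by a chi-square of at least 2.18 a gene, above counting noise. Each comparison was fitted with limma 3.58.1 (trend) in R 4.3.3 on log2(FPKM + 1), over genes reaching 1 FPKM in 3 or more of the 6 libraries, two-sided, with Benjamini-Hochberg adjustment over all genes tested and calls at 0.05, without a replicate block. The script was also run on simulated libraries. These lacked the GC differences seen between the siANKRD35 libraries, so that run says nothing about such differences. Alternatives were a pseudocount of 0.1, no filter or one of 5 FPKM, quantile normalization, median centring, removal of the trend with length (and, added after seeing the data, with GC content), the replicate block, voom on the recovered reads, and each library left out.

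The members and all gene lists were chosen with earlier results of these data known. Named were the 5 highest and 3 lowest members in shcontrol; per comparison the 6 largest called increases and decreases without overlap of groups; members called alike in all comparisons, and 6 called in opposite directions; members with particular roles; and up to 3 called genes of each companion list. Promoter windows were RefSeq's, on GRCh38.p14.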

Additional observations from a re-analysis of the deposited data

How the results depend on the processing

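No member called in a comparison and named above changed direction under any alternative run. For the ANKRD35 comparison the 58 members higher (19.4% of all genes) became 37 with quantile normalization (14.1% of all genes, median log2 change 0.40). They became 32 with the length trend removed (13.6% of all genes, median 0.33). With length and GC content removed the median was 0.29 and 2 members were lower (21.5% of all genes). Leaving out single libraries gave 34 to 71 higher, 0 lower and medians of 0.48 to 0.52. In these runs 9.81% to 29.6% of all genes were called higher and 9.25% to 25.4% lower. For the RBCK1 comparison voom gave 32 higher (34.3% of all genes) and a median of 0.12. Leaving out single libraries there gave 15 to 22 higher and 7 to 12 lower (19.7% to 21.7% and 20.8% to 23% of all genes). The medians ran from 0.02 (without shRBCK1 replicate 2) to 0.09 (without shRBCK1 replicate 3). For the MITD1 comparison the median was −0.068 with quantile normalization, −0.035 with length removed and −0.039 with length and GC content removed. Leaving out single libraries there gave 12 to 14 higher and 28 to 31 lower, with medians of −0.11 to −0.08. In these MITD1 runs 27.6% to 27.9% of all genes were called higher and 33.1% to 33.8% lower. The cause of these shifts was not tested.

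Directions that turned were those of members not called. In the RBCK1 comparison MRPL15 was at 0.078 with quantile normalization, 0.031 with voom and −0.051 to 0.013 with single libraries left out. MRPS18C was at 0.016 with median centring, 0.044 with voom and −0.034 to 0.030 with single libraries left out. With length and GC content removed MRPL46 was at −0.0055 and MRPS36 at −0.019, and MRPS26 was at −0.017 with the length trend removed. With single libraries left out these ran from −0.016 to 0.088, −0.017 to 0.14 and −0.016 to 0.048, and MRPL23 from −0.022 to 0.22. In the MITD1 comparison MRPS36 ran from −0.13 to 0.12.

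Deviations of same-numbered libraries from their group means correlated at −0.01, 0.01 and 0.03 (RBCK1), 0.18, 0.11 and −0.09 (ANKRD35) and 0.10, 0.03 and −0.00 (MITD1). Not every library correlated best with its own number. Deviations within a group depend on each other, so these values cannot decide whether libraries were paired. With the replicate block, 17 members were higher and 9 lower for RBCK1, 60 and 0 for ANKRD35 and 15 and 32 for MITD1. The shares of all genes with that block are not given here, so nothing particular to the family is read from these counts. Depth limits low members such as MRPL46, and for the MITD1 table it was not recovered here. Where a group keeps 2 libraries, their spread is pooled with the other group's.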
